A study of Mus musculus with 12 samples.

Results

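The Dppa genes (developmental pluripotency associated) were named for being expressed together with the pluripotency factor Pou5f1 in early embryos, and they do not form a single protein family. The 5 genes Dppa1, Dppa2, Dppa3, Dppa4 and Dppa5a were taken from the deposited tables by gene symbol, out of 24411 genes, and all 5 were counted deeply enough to be tested. DPPA5A, also called ESG1, is a small RNA-binding protein with a KH domain. DPPA3, also called STELLA or PGC7, is stored in the egg and protects the maternal genome from loss of methylation after fertilization, and it also restrains the maintenance methylation factor UHRF1. DPPA2 and DPPA4 are partner proteins with a SAP domain that bind chromatin, keep the promoters of developmental genes free of DNA methylation and can switch on genes of the 2-cell stage. The role of DPPA1 is less well described.

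The study measured poly(A) RNA from blastocysts of the outbred ICR mouse stock, wild type throughout, in 6 groups of 2 libraries. Each library was a pool of 10 embryos made by in vitro fertilization of oocytes from superovulated females and cultured until 96 hours after insemination, as the abbreviation hpi is read here. The diet labels are ND and HFD, which the labels do not spell out, while the title of the series speaks of obese mice and of mice with normal weight. Embryos were controls (C) or received siRNA, either non-targeting (siNT) or directed at Nampt (siNampt), which encodes the rate-limiting enzyme of NAD salvage from nicotinamide. Both siRNAs were electroporated into zygotes at 3 to 6 hpi, and all groups share the culture system and the superovulation. The labels leave out whether C embryos went through electroporation. Each group has 1 library in batch 1 and 1 in batch 2, numbered as replicates 1 and 2. Separate matings are not stated for the pools, so p-values measure only the spread between pools, which may be technical.

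Totals lay between 42473129 and 50503064 expected counts per library. Nampt, in counts relative to library size after TMM scaling (CPM), lay at 37.7 to 53.9 CPM in siNampt, 49.4 to 74.6 CPM in siNT and 38.2 to 67.0 CPM in C, so the 3 ranges overlapped. Its log2 difference between siNampt and siNT was -0.43 (SE 0.17, edgeR unadjusted p = 0.0217, adjusted p = 0.396). At an unadjusted p under 0.05, 5.05% of all genes were lower. Matched by diet and batch, siNampt was below siNT in every pair. Replicates 1 and 2 held 53.9 and 37.7 CPM against 74.6 and 49.4 CPM in ND. In HFD they held 50.3 and 44.0 CPM against 61.3 and 66.0 CPM. Markers of the blastocyst were present. The summed transcript abundance (TPM) of 9 trophectoderm markers lay at 2793 to 5289, of 7 inner cell mass and epiblast markers at 107 to 209, and of 7 primitive endoderm markers at 60.1 to 102. The summed TPM of other cells was low, at 0 to 0.51 for 7 cumulus and granulosa markers, 1.67 to 5.29 for 6 sperm markers, 1.26 to 5.12 for 7 oocyte markers, 0 to 2.78 for 4 blood markers and 0.05 to 1.46 for 4 fibroblast markers. In pooled embryos, fewer cells of a type and less RNA per cell cannot be told apart.

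TPM, which accounts for gene length and library size, was used to compare levels between genes. On that scale the order was the same in 12 of 12 libraries, with Dppa5a highest, followed by Dppa3, Dppa1, Dppa2 and Dppa4. The 5 genes together made up 3.33% to 4.13% of all TPM. Dppa5a alone made up 2.92% to 3.54%.

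**Figure D1:**
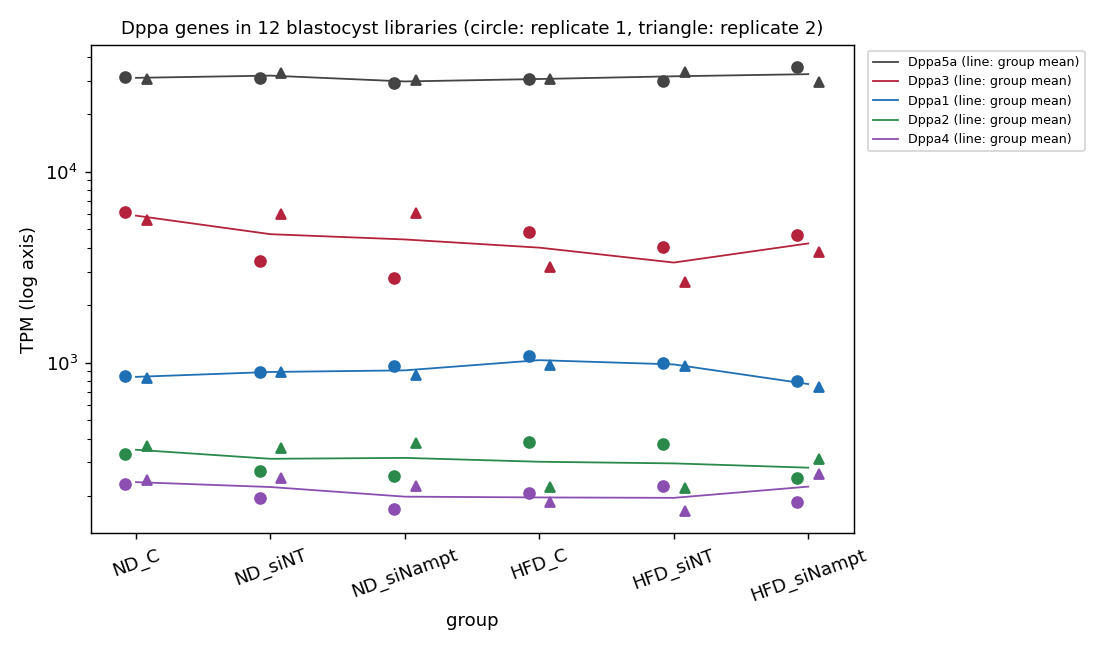
TPM of the 5 Dppa genes on a log axis, by group, with a circle for replicate 1, a triangle for replicate 2 and a line through the group means (n = 2). The order of the 5 genes is the same in every group, and the replicates of Dppa3 stand up to 2.20-fold apart against at most 1.12-fold for Dppa1.

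Dppa5a ranked 1 of all genes by TPM in each of the 12 libraries. The next highest genes by mean TPM were Fabp3, a fatty acid carrier, at 18818 TPM, and Ppia, the folding enzyme cyclophilin A, at 14437 TPM, against 31191 TPM for Dppa5a. In ND, replicates 1 and 2 of Dppa5a stood at 31417 and 30598 TPM in C, 30853 and 32856 TPM in siNT, and 29153 and 30229 TPM in siNampt. In HFD they stood at 30505 and 30647 TPM in C, 29859 and 33336 TPM in siNT, and 35406 and 29432 TPM in siNampt. The lowest and the highest library were both siNampt libraries, and in TPM the ND siNampt libraries lay below the other 4 ND libraries. The coefficient of variation over the 12 libraries was 5.83%, the smallest of the 5 genes. The gene lies on the minus strand of chromosome 9 from 78367052 to 78368199 in GRCm38.p6 and is protein-coding.

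The Dppa5a count depends on how reads were shared with a copy of its own sequence. RSEM, the counting tool named in the submitters' processing notes, divides a read that fits several transcripts into fractions. The expected counts of Dppa5a were not whole in 12 of 12 libraries, whereas those of the other 4 genes were whole in all 12. The sum of Dppa5a and Pigp, which encodes a subunit of the enzyme that starts GPI anchor synthesis, was whole within 0.02 counts in 12 of 12 libraries. An alternative last exon of Pigp (exon 4 of that transcript, 412 bases on the minus strand at chr16:94358763-94359174) aligned without gaps to spliced exons 2 and 3 of Dppa5a over 412 bases, with 17 mismatches (95.9% identity) and a longest identical run of 96 bases. The parts of that alignment in exons 2 and 3 of Dppa5a, up to its stop codon, are shown because they are what the genes share. They are given in the direction of the gene, from the GENCODE M21 transcripts of GRCm38, at chr9:78367721-78367895 (exon 2, 175 bases, 8 mismatches, 95.4% identity) and chr9:78367236-78367294 (the coding part of exon 3, 59 bases, 1 mismatch, 98.3% identity). Capitals mark the bases that differ from the Pigp exon.
Dppa5a exon 2 stretch: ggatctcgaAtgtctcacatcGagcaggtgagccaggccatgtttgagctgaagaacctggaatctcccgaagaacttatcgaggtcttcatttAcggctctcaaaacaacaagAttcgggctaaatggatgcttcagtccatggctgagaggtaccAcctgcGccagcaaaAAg
Dppa5a exon 3 coding part: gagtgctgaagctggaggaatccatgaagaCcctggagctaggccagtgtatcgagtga

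The Pigp count was 2.19% to 3.70% of the Dppa5a count, so a given number of shared reads is a larger part of the Pigp count than of the Dppa5a count. Pigp had a log2 difference of -0.44 (SE 0.12, edgeR adjusted p = 0.396) between siNampt and siNT and 0.46 (SE 0.12, edgeR adjusted p = 0.984) between siNT and C. The part of shared reads in these Pigp values was not tested. Counting transcripts that share at least 100 stretches of 31 bases with each gene, Dppa5a had 6 such genes, of which Pigp and the pseudogene Gm6083 (mean 3.82 TPM) are listed in the tables. Dppa2 had 4, Dppa4 had 2 and Dppa3 had 1, none of them listed there. Dppa1 had 1, Gm12171, at a mean of 0.19 TPM. Pigp and Gm6083 were named after their values were seen.

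Dppa3 was the most variable of the 5 genes. In ND it stood at 6167 and 5604 TPM in C, 3418 and 5993 TPM in siNT, and 2762 and 6069 TPM in siNampt. In HFD it stood at 4844 and 3157 TPM in C, 4041 and 2643 TPM in siNT, and 4637 and 3779 TPM in siNampt. The highest library was 2.33-fold above the lowest, and ranks by TPM ran from 7 to 56. The largest gaps between replicates were in ND, where replicate 2 was 1.75-fold above replicate 1 in siNT and 2.20-fold above it in siNampt, while the C replicates differed 1.10-fold. In HFD replicate 1 was the higher in all 3 treatments, by 1.23-fold to 1.53-fold. The gene is on the plus strand of chromosome 6 from 122626424 to 122630271.

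Dppa2 and Dppa4, the chromatin pair, are neighbours on the plus strand of chromosome 16, Dppa4 from 48283735 to 48294292 and Dppa2 from 48310274 to 48319513, with 15982 bases between them. Dppa2 stood in ND at 334 and 365 TPM in C, 269.55 and 357 TPM in siNT, and 254 and 379.7 TPM in siNampt. In HFD it stood at 383 and 222 TPM in C, 374 and 219 TPM in siNT, and 249 and 314 TPM in siNampt. The highest and the lowest values of Dppa2 were thus both in HFD.

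Dppa4 stood in ND at 229.9 and 243 TPM in C, 196 and 249.8 TPM in siNT, and 170.45 and 227 TPM in siNampt. In HFD it stood at 208 and 185 TPM in C, 225 and 167 TPM in siNT, and 187 and 262 TPM in siNampt. The lowest library of Dppa4 was an HFD siNT library and the highest an HFD siNampt library. In TPM Dppa2 stood above Dppa4 by at most 1.84-fold in the 12 libraries, Dppa3 above Dppa4 by 14.4-fold to 26.8-fold, and Dppa5a above Dppa3 by 4.98-fold to 12.6-fold.

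Dppa1 lies on the minus strand of chromosome 11 from 46607010 to 46629274, beside the TIM family of cell surface receptors. In ND it stood at 853 and 831 TPM in C, 890.2 and 896 TPM in siNT, and 960.3 and 861 TPM in siNampt. In HFD it stood at 1088 and 972 TPM in C, 999 and 957 TPM in siNT, and 803 and 741 TPM in siNampt. The 2 HFD siNampt libraries were the lowest of all 12 and the 2 HFD C libraries were the highest and the third highest, with an HFD siNT library between them.

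Dppa2, Dppa3 and Dppa4 varied together over the 12 libraries, with exceptions in HFD. In HFD siNampt, for example, replicate 2 had the highest Dppa4 of all libraries in TPM while its Dppa2 and Dppa3 were below their medians. On the log2 CPM scale Pearson's r over the 12 libraries was 0.79 for Dppa2 with Dppa3, 0.79 for Dppa2 with Dppa4 and 0.75 for Dppa3 with Dppa4 (Spearman's rho 0.74, 0.60 and 0.72). After the mean of each group was removed, r was 0.81, 0.86 and 0.71, so the covariation was also present between replicates of a group. With 2 libraries a group the deviations mirror each other, so this r rests on 6 gaps, each between batch 1 and batch 2. Dppa2 and Dppa4 had the higher value in the same replicate in 6 of 6 groups, and Dppa3 shared it with each of them in 4 of 6. Dppa1 stood apart from this trio, with r of 0.13, -0.11 and -0.19 with Dppa2, Dppa3 and Dppa4, and Dppa5a had r of 0.00, 0.21 and 0.07. On the log2 TPM scale these were -0.01, -0.29 and -0.46 for Dppa1 and -0.34, 0.14 and -0.26 for Dppa5a. Dppa1 with Dppa5a had r of 0.49 on the log2 CPM scale and -0.17 on the log2 TPM scale, so its sign depends on the scale. These are descriptions of 12 points, or of 6 gaps, that share libraries and scaling factors.

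**Figure D2:**
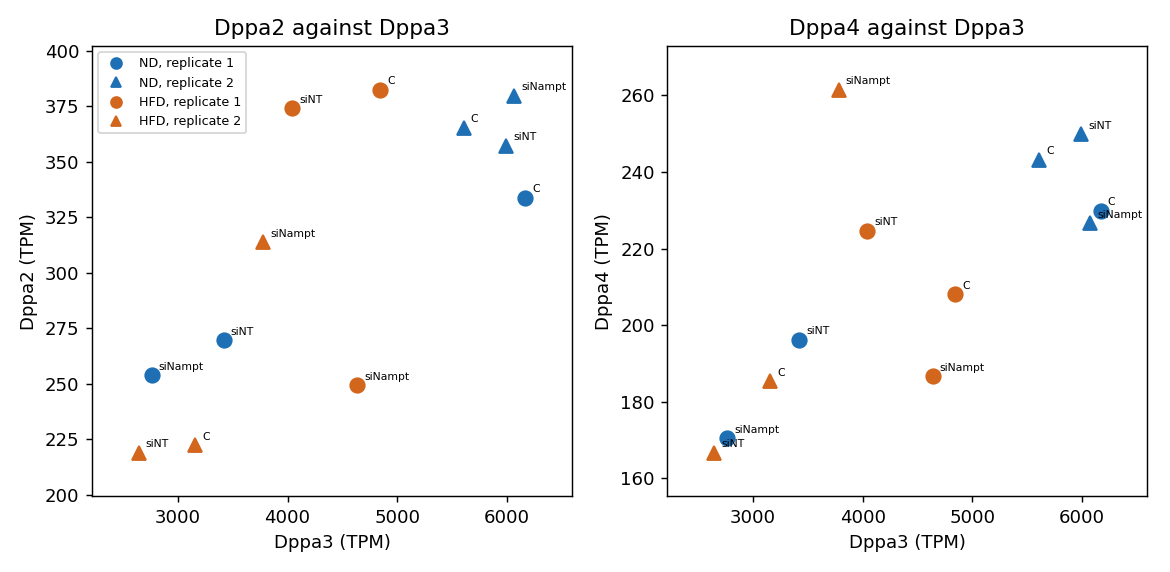
TPM of Dppa2 (left) and Dppa4 (right) against TPM of Dppa3 in the 12 libraries, coloured by diet, with circles for replicate 1 and triangles for replicate 2. Libraries with more Dppa3 mostly had more Dppa2 and Dppa4, and the triangles of ND and HFD lie at opposite ends of the Dppa3 axis (5604 to 6069 and 2643 to 3779 TPM).

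The gap between replicates was large for Dppa3 and Dppa2. As the root mean square of the log2 CPM gap over the 6 groups it was 0.69 for Dppa3, 0.53 for Dppa2, 0.30 for Dppa4, 0.21 for Dppa5a and 0.18 for Dppa1, against a median of 0.23 over the 1969 genes whose mean reached 100 CPM. Of those genes 97.8% had a smaller gap than Dppa3, 95.2% a smaller gap than Dppa2 and 73.4% a smaller gap than Dppa4. For Dppa5a and Dppa1 the shares were 39.9% and 26.2%.

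Cell type markers had the following r with the trio on the log2 CPM scale, and their part in its covariation was not tested. Of the 9 trophectoderm markers, all tested, 8 had a negative r with Dppa2, 7 with Dppa3 and 8 with Dppa4, against 50.5%, 52.3% and 52.5% of the 8482 other genes of at least 5 CPM. The lowest was Eomes, at -0.88 with Dppa4. Of the 7 inner cell mass markers 4, 4 and 6 had a positive r and 3, 3 and 1 a negative one, beside the same shares of negative r over all genes. They ran from Sox2 at -0.35, -0.22 and -0.10 to Nanog at 0.72, 0.73 and 0.59, with medians of 0.19, 0.05 and 0.11. Of the 7 primitive endoderm markers 6, 5 and 4 had a negative r, and Gata6 had the highest, at 0.19, 0.62 and 0.36. On the log2 TPM scale the summed inner cell mass markers had r of 0.62, 0.51 and 0.62 with Dppa2, Dppa3 and Dppa4. The summed trophectoderm markers, mostly Krt18 and Krt8, had -0.10, -0.23 and -0.02, and the summed primitive endoderm markers -0.21, 0.22 and 0.09.

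The effect of the Nampt siRNA was compared with siNT over both diets (4 libraries each) and within each diet (2 each), in an edgeR quasi-likelihood fit with Benjamini-Hochberg adjustment over 14743 genes. The estimates of all 5 Dppa genes were below 0 over both diets, between -0.29 for Dppa1 and -0.03 for Dppa3 on the log2 scale, with a median of -0.17 against 0.03 over all genes tested. In ND all 5 were again below 0, from -0.35 (Dppa4) to -0.15 (Dppa1). In HFD Dppa1, Dppa2 and Dppa5a were below 0 and Dppa3 and Dppa4 above. On the TPM scale the estimates of Dppa3 and Dppa4 over both diets, of Dppa1 and Dppa2 in ND and of Dppa5a in HFD had the opposite sign. None of the 5 passed an adjusted p of 0.05 in any of these comparisons with edgeR, nor did any gene (0% called). At an unadjusted p under 0.05, 1 of the 5 (Dppa1) passed over both diets, where 11.2% of all genes did (5.05% lower), and 1 (again Dppa1) in HFD, where 4.27% did (2.31% lower). The unadjusted p of Dppa1 over both diets was above 0.05 when ND_siNT replicate 1 or 2, HFD_siNT replicate 2, or HFD_siNampt replicate 1 or 2 was left out, and in HFD it stayed below 0.05 with each library left out. These shares moved with single libraries. Over both diets they rest on 1645 genes, which became 1017 without ND_siNT replicate 1 and 1057 without HFD_siNampt replicate 2. In HFD they rest on 630 genes, which became 267 without HFD_siNT replicate 2 and 1255 without HFD_siNampt replicate 1. In ND 0 passed, where 8.34% of all genes did, and for the difference between the diets 0 passed, where 3.06% did. Those 1230 and 451 genes became 682 without ND_siNT replicate 2 and 1164 without HFD_siNampt replicate 2. DESeq2 called none of the 5 and, in that order, 28, 2, 0 and 0 genes in all.

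**Figure D3:**
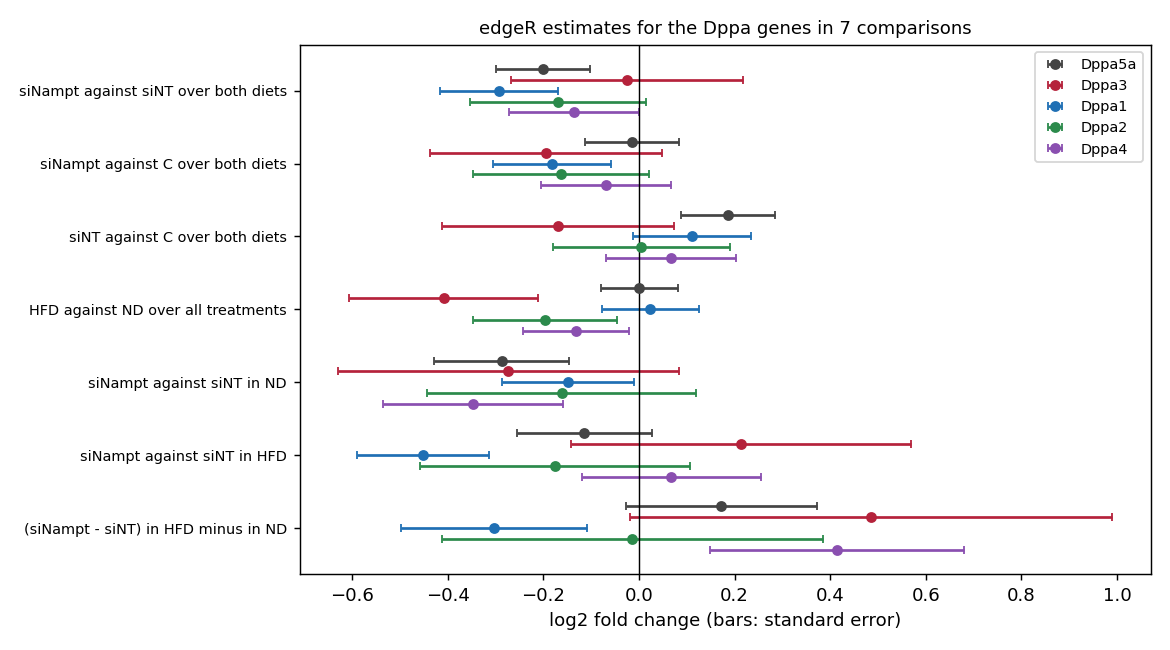
edgeR log2 fold changes of the 5 Dppa genes with standard errors in 7 comparisons. The Dppa1 estimate in HFD (-0.45, SE 0.14) lies farthest from 0 relative to its error among the knockdown estimates, and none of the estimates passed an adjusted p of 0.05.

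Dppa1 had the lowest unadjusted p of the 5 for siNampt against siNT over both diets and in HFD, but not in ND, where Dppa5a and Dppa4 had lower ones. The ND libraries held 2071 and 2068 CPM with siNT against 1976 and 1755 CPM with siNampt. The HFD libraries held 2009 and 2188 CPM with siNT against 1665 and 1402 CPM with siNampt. In CPM all 4 siNampt libraries lay below all 4 siNT libraries, a separation that 2.71% of all genes had in this direction (19.8% within ND and 15.6% within HFD). The means were 1699.6 CPM ± 238 and 2084 CPM ± 74.8 (SD, n = 4). In TPM the ranges overlapped, at 741 to 960 TPM in siNampt and 890 to 999 TPM in siNT.

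The log2 difference of Dppa1 was -0.29 over both diets (SE 0.12, edgeR adjusted p = 0.423), -0.15 in ND (SE 0.14, edgeR adjusted p = 0.788) and -0.45 in HFD (SE 0.14, edgeR adjusted p = 0.923, rank 32 of 14743). The difference between the diets was -0.30 (SE 0.20, edgeR adjusted p = 1.00), beside 0.49 (SE 0.50) for Dppa3 and 0.41 (SE 0.27) for Dppa4. Within batches siNampt was lower by a mean log2 difference of -0.17 in batch 1 and -0.44 in batch 2. Matched by diet and batch, siNampt was below siNT in 4 of 4 pairs by CPM and in 3 of 4 by TPM. A limma fit of log2(TPM + 1) gave -0.16 over both diets, -0.34 in HFD and 0.03 in ND, so the ND direction depends on the scale. The limma unadjusted p was 0.155, 0.00865 and 0.810 in that order, and the adjusted p 0.519, 0.864 and 0.958. In that fit the median of all genes over both diets was 0.07, and with a pseudocount of 0.1 it was 0.14, against 0.03 for CPM. Relative to those medians the Dppa1 difference over both diets was -0.23, -0.30 and -0.32.

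Against C, the siNampt libraries of Dppa1 overlapped the controls over both diets, as did those of the other 4 genes. Of all genes 0.861% were lower and 1.45% higher without overlap. The log2 difference was -0.18 (SE 0.12, edgeR adjusted p = 0.999). The C libraries held both high and low values, 1776 and 1642 CPM in ND and 2355 and 1955 CPM in HFD. siNampt and siNT are compared with the same C libraries, so these comparisons share samples.

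Dppa5a in ND ranged from 14629 to 15597 CPM with siNT and from 12095 to 12679 CPM with siNampt, without overlap, like 19.8% of all genes in this direction. The log2 difference there was -0.29 (SE 0.14, edgeR adjusted p = 0.596). In HFD the libraries overlapped, from 12986 to 15578 CPM with siNT and from 11335 to 15046 CPM with siNampt, and the log2 difference was -0.11 (SE 0.14, edgeR adjusted p = 0.943). Dppa2, Dppa3 and Dppa4 overlapped between siNampt and siNT in both diets. The ND estimate of Dppa3 was -0.27 with an SE of 0.36, which became -0.95 when ND_siNampt replicate 2 was left out and -0.61 when ND_siNT replicate 1 was. It became 0.20 when ND_siNT replicate 2 was left out and 0.19 when ND_siNampt replicate 1 was.

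Cell type markers had the following values in siNT and siNampt, and their part in the Dppa1 and Dppa5a values was not tested. The summed trophectoderm markers stood at 2793 to 3619 TPM in siNT and 3445 to 5289 TPM in siNampt. Most of that sum was Krt18 and Krt8, at means of 2673 and 932 TPM over the 12 libraries, with Gata3 next at 92.1 TPM. Of the 9 markers 8 had estimates above 0, with a median log2 difference of 0.32, and 3 were higher at an unadjusted p under 0.05, where 6.1% of all genes were. In ND 9 of 9 estimates were above 0 and in HFD 7 of 9. At that p 4 were higher in ND and 0 in HFD, where 8.34% and 4.27% of all genes passed in either direction. Of the 7 primitive endoderm markers 5 had estimates above 0 over both diets, with a median of 0.03. In ND 5 were below 0, with a median of -0.12. In HFD 6 were above 0, with a median of 0.34, and 1 was higher at an unadjusted p under 0.05. The sum of the 7 in HFD stood at 65.4 and 70.2 TPM in siNT and 101.6 and 79.7 TPM in siNampt. In ND it stood at 63.9 and 71.5 TPM in siNT and 73.6 and 64.0 TPM in siNampt. Of the 7 inner cell mass markers 5 had estimates below 0 over both diets, with a median of -0.26. In ND 4 were below 0, with a median of -0.41, and 2 were lower at an unadjusted p under 0.05. Of all genes 8.34% passed that p in ND in either direction. In HFD 4 of these 7 were above 0 and 3 below, with a median of 0.10. No marker of the 3 lists passed an adjusted p of 0.05. On the log2 TPM scale over the 12 libraries, the summed trophectoderm markers had r of -0.57 with Dppa5a and -0.33 with Dppa1. The summed primitive endoderm markers had 0.46 with Dppa5a and -0.67 with Dppa1, and the summed inner cell mass markers -0.32 and -0.14.

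The non-targeting siRNA was compared with C over both diets. The estimates were 0.19 for Dppa5a (SE 0.10, edgeR adjusted p = 0.984), 0.11 for Dppa1, 0.07 for Dppa4, 0.01 for Dppa2 and -0.17 for Dppa3 on the log2 scale, and those of Dppa4 and Dppa2 had the opposite sign in TPM. For 0 of the 5 genes was the unadjusted p under 0.05, as it was for 4.4% of all genes (648, which became 412 without ND_C replicate 2 and 1204 without HFD_C replicate 1), and 0 of the 5 were separated between the groups, as 1.51% of all genes were upward and 1.76% downward. For siNampt against C the estimates of the other 4 genes were -0.19 (Dppa3), -0.16 (Dppa2), -0.07 (Dppa4) and -0.01 (Dppa5a, above 0 in TPM), and 0 of 5 passed an unadjusted p of 0.05, where 3.8% of all genes did (560, which became 1007 without HFD_siNampt replicate 1).

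The diets were compared over all treatments with 6 libraries each. Dppa3 had the largest estimate, with 2323 CPM ± 512 in HFD and 3098 CPM ± 931 in ND (SD, n = 6). Its log2 difference was -0.41 (SE 0.20, edgeR adjusted p = 1.00). Dppa2 and Dppa4 followed at -0.20 and -0.13, and Dppa1 and Dppa5a stood at 0.02 and 0.00. The ranges of both diets overlapped for all 5 genes, where 0.0475% of all genes were higher and 0.0475% lower without overlap, and 0 of 5 had an unadjusted p under 0.05, as 3.22% of all genes had (474, which became 804 without ND_siNampt replicate 1, 758 without HFD_siNampt replicate 2 and 733 without HFD_C replicate 1). The edgeR unadjusted p of Dppa3 in this fit was 0.0577. Without a filter on low counts the Dppa3 difference was again -0.41, with an edgeR adjusted p of 0.00554, which passes the threshold. That setting called 99 of 21789 genes by diet and 40 to 119 in the other comparisons, where the main fit called 0. The cause of this shift was not tested.

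The diet values of Dppa3 are given by batch, a split chosen after the values were seen, so they describe these libraries. In batch 2 the ND libraries stood at 3252, 4040.5 and 3616 CPM and the HFD libraries at 1851, 1758 and 2075 CPM (C, siNT, siNampt), without overlap. In batch 1 the ND libraries stood at 3733, 2309 and 1639.8 CPM and the HFD libraries at 3002, 2451 and 2803.5 CPM, which overlapped. The log2 difference was -0.94 in batch 2 (SE 0.20, edgeR adjusted p = 0.110, rank 43 of 14743) and 0.13 in batch 1 (SE 0.20, edgeR adjusted p = 0.956). The difference between the batches was -1.08 (SE 0.29, edgeR adjusted p = 0.141).

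The Dppa2 values by batch were as follows. In batch 2 Dppa2 stood at 604, 688 and 647 CPM in ND and at 374, 418 and 496 CPM in HFD, without overlap, and the log2 difference was -0.58 (SE 0.16, edgeR adjusted p = 0.220). In batch 1 it was 0.18 (SE 0.16, edgeR adjusted p = 0.932), and the difference between the batches was -0.76 (SE 0.23, edgeR adjusted p = 0.211). Dppa4 stood at -0.27 in batch 2 and 0.01 in batch 1, with overlap in both. For Dppa1 and Dppa5a both batches lay between -0.05 and 0.05. Of the 5 genes 2 (Dppa2 and Dppa3) were lower without overlap in batch 2, where 6.76% of all genes were, and 0 in batch 1, where 4.89% were. At an unadjusted p under 0.05 these 2 genes passed in batch 2 and 0 in batch 1, against 9.94% and 6.09% of all genes, and both passed for the difference between batches, against 11% of all genes. Adjusted, none of the 5 passed, where 0.00678% of all genes did in batch 1, 0.0407% in batch 2 and 0.109% for the difference. Since the split was chosen after the values were seen, these p-values and counts describe the libraries and cannot serve as a test. Dppa2 and Dppa3 varied together (r of 0.79), so they are not 2 separate results. The 3 libraries of a diet in a batch are each of another treatment, and the labels do not say what else set the batches apart.

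**Figure D4:**
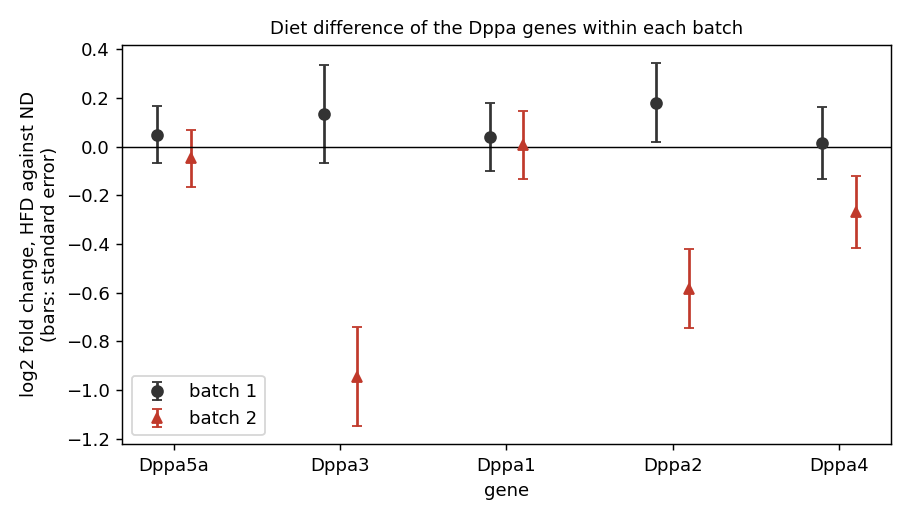
edgeR log2 fold changes of HFD against ND for each Dppa gene within batch 1 (circles) and batch 2 (triangles), with standard errors. Dppa3 and Dppa2 stand at -0.94 and -0.58 in batch 2 and at 0.13 and 0.18 in batch 1.

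The genes that varied most like each Dppa gene were found by Pearson's r of log2 CPM over the 12 libraries among 8483 genes of at least 5 CPM on average. For Dppa1 they were Mis18a, a centromere factor, Rheb, the GTPase that activates mTORC1, and Dcun1d1, a factor of neddylation (r of 0.96 each). For Dppa2 they were Mfap5, 4930461G14Rik and the RNA exonuclease Xrn1 (0.95, 0.95 and 0.94), with Dppa4 at place 37 and Dppa3 at place 39. For Dppa3 they were 1700007L15Rik, Aamdc and Aasdh (0.95, 0.91 and 0.90). For Dppa4 they were Mtus2, the deubiquitinase Atxn3 and Pramel5 (0.90, 0.89 and 0.88), with Dppa2 at place 29 and Dppa3 at place 53. For Dppa5a they were the dynein light chain Dynlrb1, Thyn1 and BC002163 (0.95, 0.95 and 0.94). With 12 libraries and so many genes, high values of r at the top of such a list are a description only.

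The genes around Dppa1 were also measured, as shown in the plot of the Dppa1 region. BC053393, 17778 bases away, stood at a mean of 1159 TPM and had r of 0.85 with Dppa1. The transcribed pseudogene Gm4926, 7232 bases away, ranged from 37.0 to 433.5 TPM (r of 0.57), and Timd2, a TIM family receptor, had a mean of 497 TPM and r of 0.06. Havcr1, a TIM family receptor that binds phosphatidylserine, is 110548 bases away and was named after its values were seen. It stood at a mean of 370.5 TPM with r of 0.90. Its log2 difference between siNampt and siNT in HFD was -0.44 (SE 0.14, edgeR adjusted p = 0.923), beside -0.62 for BC053393 (SE 0.23), -1.58 for Gm4926 (SE 0.91) and -0.001 for Timd2 (SE 0.23), each with an edgeR adjusted p of 0.923 or more.

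**Figure D5:**
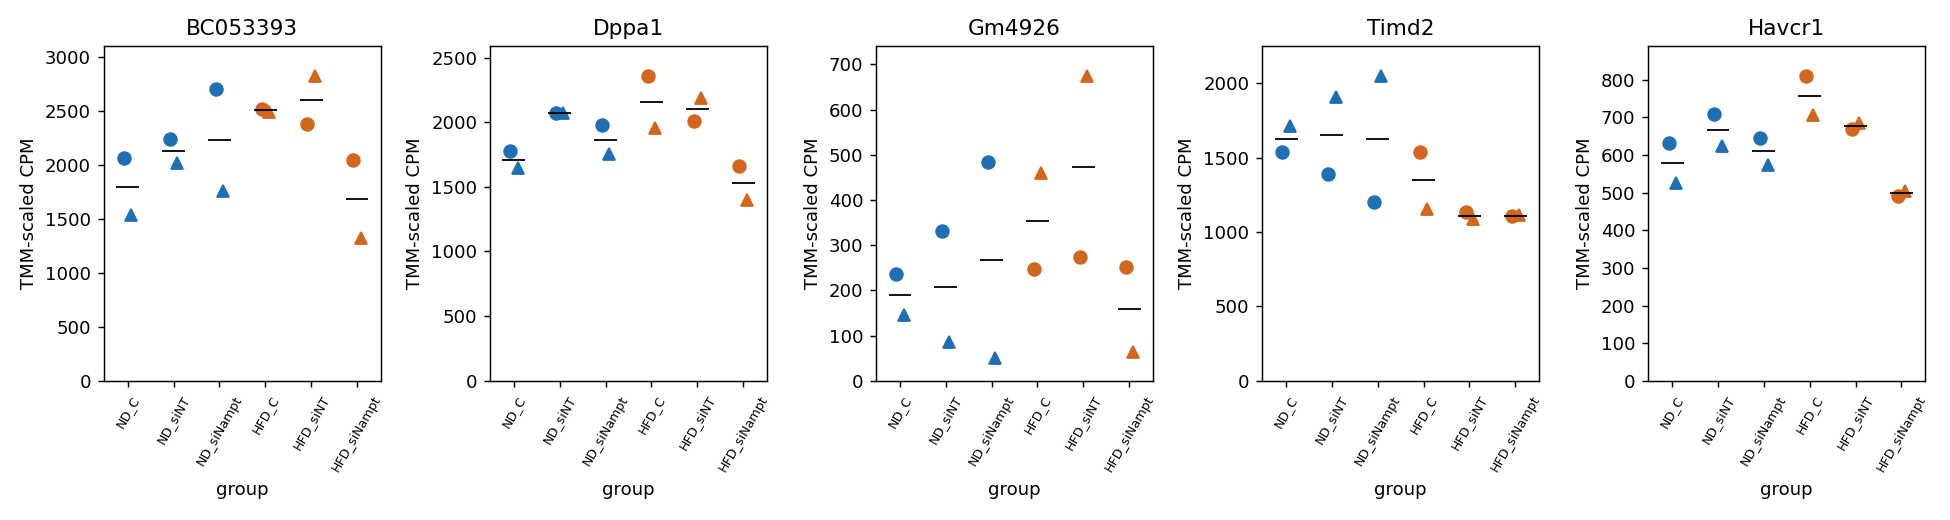
TMM-scaled CPM of BC053393, Dppa1, Gm4926, Timd2 and Havcr1, genes of the same region of chromosome 11, by group, with ND in blue, HFD in orange, circles for replicate 1, triangles for replicate 2 and bars at the group means (n = 2). The HFD siNampt libraries lie below the HFD siNT libraries for all but Timd2, a separation that 15.6% of all genes had, and for Timd2 they overlap (1108 and 1113 against 1133 and 1089.5 CPM).

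Dppa2 and Dppa4 neighbour each other. The other tested genes next to Dppa2, Dppa3, Dppa4 and Dppa5a stood below the Dppa gene beside them in mean TPM. Around Dppa1 this did not hold, since BC053393 at a mean of 1159 TPM stood above Dppa1 at 904 TPM. Next to Dppa3, Gdf3, a TGF-beta family ligand, stood at a mean of 27.6 TPM with r of 0.37 with Dppa3, and Apobec1, a cytidine deaminase, at 0.45 TPM. Apobec1 had a log2 difference of -1.66 between siNampt and siNT (SE 0.39, edgeR adjusted p = 0.396) on counts of 14 to 81 per library. Beyond Dppa2 and Dppa4, Morc1, a factor of transposon silencing in germ cells, stood at 5.82 TPM with r of -0.31 and -0.20. Beside Dppa5a, Ooep stood at 175 TPM (r of 0.20), and Gsta2, Ddx43, Omt2b and Omt2a at 3.64, 2.68, 0.67 and 0.25 TPM.

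For comparison with the Dppa genes, 4 lists of other genes were taken. Of 20 genes of the pluripotency network 20 were tested, led by Zfp42, Klf5 and Sall4 at means of 218, 175 and 122 TPM, all below the mean of Dppa2 (310.1 TPM) and the first alone above that of Dppa4 (212 TPM). Their median log2 difference between siNampt and siNT was -0.03 over both diets (9 higher, 11 lower), -0.19 in ND (7 higher, 13 lower) and 0.12 in HFD (14 higher, 6 lower), against 0.03, 0.01 and 0.04 over all genes. By diet it was 0.05. At an unadjusted p under 0.05, 0 of the 20 passed over both diets and in HFD, where 11.2% and 4.27% of all genes did. In ND 2 were higher and 3 lower at that p, where 8.34% of all genes passed in either direction. For the difference between the diets 16 were above 0 and 4 below, and 2 were higher at that p, where 3.06% of all genes passed. By diet 1 was higher, where 3.22% passed. None of the 20 passed an adjusted p of 0.05 in these comparisons.

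The 2-cell-stage genes that DPPA2 and DPPA4 can activate were nearly silent. Of 23 listed, 21 are listed in the tables and 7 passed the filter, and their summed TPM lay at 4.76 to 19.8. Most of it was Sp110, a nuclear body protein, with a mean of 5.85 TPM, followed by Tdpoz5 and Tdpoz2 at 0.96 and 0.52 TPM. Dux, the factor that opens this program, had a mean of 0.064 TPM, the highest of the Zscan4 genes, Zscan4f, 0.037 TPM, and Gm4340 was listed at 0 in all 12. The summed level of the list was thus a small part of the 219 TPM that was the lowest value of Dppa2. Their median log2 difference was 0.00 between siNampt and siNT (4 higher, 3 lower) and 0.39 between HFD and ND (4 higher, 3 lower), and 0 of the 7 tested had an unadjusted p under 0.05 in either, where 11.2% and 3.22% of all genes had.

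Of 17 genes of DNA methylation around DPPA3, 16 were tested. The highest were Dnmt3l, the cofactor of de novo methylation, at a mean of 61.2 TPM, Trim28, which silences retrotransposons, at 51.7 TPM, and the remodeller Hells at 44.7 TPM. Uhrf1, the factor that DPPA3 restrains, stood at 14.0 TPM and Dnmt1 at 2.18 TPM, against 4426 TPM for Dppa3 itself. Their median log2 difference was 0.14 between siNampt and siNT (10 higher, 6 lower) and 0.06 between HFD and ND (13 higher, 3 lower). For siNampt against siNT 1 of the 16 was lower at an unadjusted p under 0.05 (Apobec1), where 5.05% of all genes were lower. None passed the adjusted threshold.

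Of 11 KH-domain relatives of DPPA5A and members of the subcortical maternal complex, an assembly stored in the egg, 10 were tested. Khdc3 and Ooep, KH-domain proteins of that complex, stood at means of 669 and 175 TPM, and the next, Khdc1a, at 1.86 TPM. Dppa5a was thus far above its relatives, at 31191 TPM. Their median log2 difference was 0.09 between siNampt and siNT (7 higher, 3 lower) and -0.04 between HFD and ND (4 higher, 6 lower), and 0 of the 10 passed the adjusted threshold.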

How the data were processed

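Libraries were made with a SMART-Seq v4 PLUS kit from pools of 10 embryos, per the labels' protocols. STAR 2.7.10, RSEM 1.2.28 and the build mm10 are named in the submitters' processing notes, and no source used here says whether strand was kept. Per the file headers, each deposited table gives the expected count, TPM, FPKM, length and effective length of every gene. The deposited TPM values were used for levels and an alternative, and the deposited FPKM values and lengths (other values, in bases) were not tested. The deposited expected counts were rounded before testing, since 6.43% had a fractional part.

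Genes were filtered with filterByExpr on the 6 groups (minimum count 10), which kept 14743 of 24411, all 5 Dppa genes among them. Counts were scaled by TMM and the edgeR 4.0.16 package of R 4.3.3 served for testing (two-sided quasi-likelihood tests, Benjamini-Hochberg adjustment, threshold 0.05) with all 12 libraries, in an additive model of diet and treatment or a model of group means. An SE is the absolute log2 fold change over the square root of F. CPM is TMM-scaled, and log2 CPM has a prior count of 2. The fit was tested on simulated data. Alternatives used DESeq2 1.42.0, limma 3.58.1 on log2 TPM, RLE factors, other filters, the replicate number as a block, and each library left out. Diet within batches came from a model of diet-by-batch means and treatment.

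The named genes are the 5 members, the 3 of highest mean TPM in each pathway list, tested genes among the 3 nearest on each side, and the 3 most alike. Eomes, Nanog, Dux, Gm4340, Uhrf1 and Dnmt1 were named from the lists beyond that rule, and Gm12171 from the shared-sequence count, and Zscan4f, after values were seen. Gene positions are from RefSeq (GRCm38.p6), and strands and the sequences from GENCODE M21. The members and lists were chosen with earlier results of these data known.

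Replicate numbers pair libraries across groups, because the labels give each number as a batch. Correlating the differences between replicates across genes gave r of -0.06 to 0.22 over 15 pairs of groups (median 0.0917), of which 6 were above 0.1.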

Additional observations from a re-analysis of the deposited data

How the results depend on the processing

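Counts of genes past the threshold were 0 in all 7 comparisons with edgeR, and with RLE factors, the filter of 5 CPM in at least 2 libraries and limma on TPM. They were also 0 in all 7 with the replicate block, which moved the Dppa1 difference in HFD from -0.45 to -0.46 and changed no call of a Dppa gene. At an unadjusted p under 0.05 the main counts were 1645 (siNampt against siNT), 560 (siNampt against C), 648 (siNT against C), 474 (HFD against ND), 1230 (siNampt against siNT in ND), 630 (in HFD) and 451 (difference between diets). In that order DESeq2 called 28, 25, 15, 2, 0, 2 and 0 genes, and edgeR without a low-count filter 119, 71, 76, 99, 108, 68 and 40. None of the DESeq2 calls was a Dppa gene, and 1 call without the filter was, Dppa3 by diet (-0.41, adjusted p = 0.00554). The cause of these differences was not tested. Within batches 1 and 2 the diet count was 1 and 6. With 1 library left out, the diet count ranged from 0 to 1 (1 without ND_siNampt replicate 1), the HFD knockdown count from 0 to 1 and the count for the difference between diets from 0 to 2 (1 and 2 without HFD_siNampt replicate 2).

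Of the log2 fold changes of the 5 genes, those that reversed sign were not past the threshold in any setting, except Dppa3 by diet without a filter. By diet, Dppa5a (0.0011) was -0.0057 with DESeq2, -0.0055 with RLE factors and -0.00045 without a filter, and within batches, chosen after seeing the data, -0.048 in batch 2, while Dppa2, Dppa3 and Dppa4 were 0.18, 0.13 and 0.015 in batch 1. For siNT against C, Dppa2 (0.0052) was -0.0012 without a filter and -0.0013 with the stricter filter, which set its difference between diets (-0.014) at 0.00043. In limma on log2(TPM + 1), siNampt against siNT was 0.11 for Dppa3 and 0.0096 for Dppa4 over both diets, 0.026 for Dppa1 and 0.0011 for Dppa2 in ND, and 0.033 for Dppa5a in HFD. In the same fit siNampt against C was 0.0078 for Dppa5a, and siNT against C was -0.098 for Dppa2 and -0.058 for Dppa4. A pseudocount of 0.1 gave 0.11, 0.0096, 0.026, 0.001 (0.00105), 0.033, 0.0078, -0.099 and -0.058 for the same 8.

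With each library left out in turn, siNampt against siNT ranged from -0.18 to 0.20 for Dppa3 over both diets, from -0.47 to 0.10 for Dppa2 and -0.95 to 0.20 for Dppa3 in ND, and in HFD from -0.45 to 0.14 for Dppa2, -0.019 to 0.46 for Dppa3, -0.14 to 0.24 for Dppa4 and -0.32 to 0.049 for Dppa5a. The difference between diets ranged from -0.30 to 0.30 for Dppa2 and -0.046 to 0.33 for Dppa5a. siNampt against C ranged from -0.30 to 0.023 for Dppa2, -0.35 to 0.023 for Dppa3, -0.20 to 0.039 for Dppa4 and -0.11 to 0.036 for Dppa5a. siNT against C ranged from -0.14 to 0.19 for Dppa2 and -0.038 to 0.14 for Dppa4, and diet from -0.049 to 0.089 for Dppa1 and -0.061 to 0.039 for Dppa5a. Dppa1 kept its sign for siNampt against siNT, from -0.38 to -0.20 over both diets, -0.23 to -0.059 in ND and -0.57 to -0.36 in HFD. A group left with 1 library was assumed to vary like the others. With 2 libraries a group, the median SE over all genes was 0.32 for the knockdown within a diet and 0.18 for diet, while each Dppa gene had at least 9523 counts in every library. What part of the spread is technical was not tested.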
